A study of Mus musculus with 12 samples.

Results

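The genes of MHC class I antigen presentation were followed across basophil differentiation in the mouse. The set held 7 genes taken by symbol from a count table of 32227 genes: the heavy chains H2-K1 and H2-D1, the light chain B2m, the peptide transporter subunits Tap1 and Tap2, the loading factor Tapbp (tapasin) and the class I transactivator Nlrc5. All 7 passed the filter on low counts that left 15083 genes for testing. Bulk RNA sequencing had been performed on 12 libraries in 4 groups of 3, all from C57BL/6J WT mice with no treatment named in the labels. CD34+ basophil progenitors (BaPs, CD200R3+ cKit- CLEC12A-high), CD34- pre-basophils (CLEC12A-high, CD9-low, labelled immature basophils) and mature basophils (CLEC12A-low, CD9-high) came from sorted bone marrow (BM), and the last population was sorted from spleen as well. Each library held cells pooled from several animals in a single experiment, and the sources used here do not give the animals' age or sex.

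MHC class I molecules carry peptides from inside the cell to its surface, where CD8+ T cells and NK cells read them. A heavy chain pairs with beta-2 microglobulin in the endoplasmic reticulum, takes a peptide that the TAP transporter has pumped in from the cytosol, and leaves once tapasin and its partner chaperones have loaded it. The proteasome cuts most of these peptides, and NLRC5, together with interferon signalling and NF-kappa B, drives transcription of the genes involved. Most nucleated cells express them, basophils included.

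All 7 basophil markers, among them Mcpt8, Prss34 and Fcer1a, were detected in each of the 12 libraries. Their summed level ran from 60072 to 69346 CPM (read counts scaled to a common library total) for pre-basophils, 12380 to 15253 CPM for the BM mature group and 6709 to 7541 CPM for the spleen. BaP replicate 3 stood apart from the other BaP libraries. Its basophil markers summed to 24513 CPM against 66013 and 60945 CPM in replicates 1 and 2, its 7 T cell markers to 426 CPM against 24.8 and 21.2 CPM, its 5 NK cell markers to 481 CPM against 1.91 and 2.83 CPM, and its 5 erythroid markers to 1888 CPM against 4.54 and 4.48 CPM. Its 9 monocyte, macrophage and dendritic cell markers summed to 378 CPM against 69.3 and 86.5 CPM. The main BaP comparisons of the members are therefore also given without this library, and the part of these other cell types in the results was not tested. The 8 neutrophil markers summed to 996 to 2411 CPM in the BaP and pre-basophil libraries and 59.4 to 127 CPM in the mature libraries, and the 7 B cell markers to 98.5 to 165 CPM in spleen and at most 56.5 CPM in the BM libraries. Library totals ran from 3596108 to 8151030 counts, and a count of 0 allowed up to 3 counts, or 0.290 to 0.955 CPM by library. Libraries were scaled by TMM, and scaling by totals alone moved the all-gene median log2 fold change by 0.09 to 0.43, so differences are relative to the other genes. All p-values measure the spread between pools of one experiment. In bulk libraries a smaller share of expressing cells and less RNA per cell cannot be told apart.

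The classical heavy chains were most abundant in BM mature basophils. H2-D1 (chr17:35262730-35267499 on GRCm38, plus strand) measured 1403, 1178 and 1570 CPM in BaP replicates 1 to 3. In pre-basophils it measured 1854, 1623 and 2048 CPM, in BM mature basophils 3214, 2588 and 3547 CPM, and in spleen mature basophils 1881, 1874 and 2020 CPM. Every BM mature library lay above every library of the other groups, and every BaP library lay below all others. H2-D1 was lower in pre-basophils than in BM mature basophils by a log2 fold change of -0.76 (SE 0.14, edgeR adjusted p = 0.00157), lower in BaPs than in BM mature basophils by -1.17 (SE 0.15, adjusted p = 2.28e-05, and -1.26 without BaP replicate 3), and lower in spleen than in BM mature basophils by -0.69 (SE 0.14, adjusted p = 0.0139). It was also lower in BaPs than in spleen mature basophils (log2 fold change -0.48, SE 0.14, edgeR adjusted p = 0.0126), and by -0.57 without BaP replicate 3. That call was lost without BaP replicate 2 (adjusted p = 0.0663) and when libraries were scaled by their totals alone (log2 fold change -0.17). DEGES, a scaling that leaves likely changed genes out, ended it as well (-0.35, adjusted p = 0.0630). The spleen-to-BM call was lost on leaving out BM mature replicate 1 or 3 or spleen replicate 2 or 3, with adjusted p up to 0.0580. Pre-basophils and spleen mature basophils were neighbours in the order of levels and differed by -0.06 (SE 0.14, adjusted p = 0.740). BaPs and pre-basophils differed by -0.41 (SE 0.14, adjusted p = 0.0988), by -0.50 without BaP replicate 3 (adjusted p = 0.0215), and by -0.42 with the replicate number as a block (adjusted p = 0.0275).

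H2-K1, the other classical heavy chain (chr17:33996017-34000347, minus strand), had a like profile with 1 library out of place. Its levels were 886, 758 and 1603 CPM in BaPs. Pre-basophils held 942, 870 and 1092 CPM. BM mature libraries held 1404, 1378 and 1794 CPM, and spleen mature libraries 907, 937 and 1051 CPM. BaP replicate 3 lay within the BM mature range and both other BaP libraries lay near the pre-basophil and spleen values. H2-K1 was lower in pre-basophils than in BM mature basophils (log2 fold change -0.66, SE 0.22, adjusted p = 0.0417), with no overlap between the libraries. This call was lost on leaving out any single pre-basophil, BM mature or spleen library (edgeR adjusted p up to 0.156). Scaling by library totals alone or by DEGES (-0.57, adjusted p = 0.0593) also ended it. Without BaP replicate 3 the difference stood at -0.65 (adjusted p = 0.000301). Spleen differed from BM mature basophils by -0.66 (SE 0.22, adjusted p = 0.0863), again with no overlap, and without BaP replicate 3, whose spread enters the shared model, by -0.66 with adjusted p = 0.000977. BaPs differed from BM mature basophils by -0.49 (SE 0.22, adjusted p = 0.0853), and by -0.88 without BaP replicate 3 (adjusted p = 3.37e-05). With the replicate block the adjusted p was 0.0107 for BaPs and 0.0186 for spleen, each against BM mature basophils.

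Promoter sequence of both heavy chain genes is shown because these genes had like profiles and their promoter regions carry the same motif letters in the same order. In the RefSeq windows of 300 bases (250 before and 50 after an annotated start, build GRCm38.p6), H2-D1 lies at chr17:35262844-35263143 on the plus strand and H2-K1, for 1 of its 2 annotated starts, at chr17:34000284-34000583 on the minus strand. Capitals mark, from left to right, a kappa B site of enhancer A (GGGGA, any base, TCCC, matched on both strands with overlapping letters), the X2 box core TGACGC, the Y box core ATTGG followed by its reverse complement CCAAT, and a TATA box (TATAAA).
H2-D1: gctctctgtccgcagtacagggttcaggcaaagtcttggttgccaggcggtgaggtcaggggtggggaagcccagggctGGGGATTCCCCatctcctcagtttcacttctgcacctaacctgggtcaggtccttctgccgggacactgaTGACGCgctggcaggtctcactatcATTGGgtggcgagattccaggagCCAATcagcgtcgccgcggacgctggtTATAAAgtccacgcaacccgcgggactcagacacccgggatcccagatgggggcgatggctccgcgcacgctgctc
H2-K1: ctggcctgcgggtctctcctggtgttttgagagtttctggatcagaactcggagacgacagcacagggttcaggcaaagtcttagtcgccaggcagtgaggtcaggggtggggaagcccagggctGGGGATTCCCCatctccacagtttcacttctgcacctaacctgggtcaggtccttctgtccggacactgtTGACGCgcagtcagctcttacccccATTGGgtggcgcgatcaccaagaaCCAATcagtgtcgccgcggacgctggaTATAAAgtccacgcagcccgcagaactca
From the first base of one motif to the first base of the next, the kappa B site stood 70 bases before the X2 core in both genes, and the X2 core 25 bases before the first Y box core. The pair of Y box cores was 23 bases apart in H2-D1 and 24 in H2-K1, and the TATA box followed 27 bases later in both. Relative to the annotated start used, the first TATA box base lay at -26 in H2-D1 and at 21, after the start, in H2-K1. Searched on both strands of 32851 RefSeq promoter windows, the kappa B letters occurred in 0.323%, the X2 core in 7.40%, the Y box core in 37.4% and TATAAA in 13.6%. Apart from the kappa B matches, no motif overlapped another, and the matches describe letters and not bound sites.

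Heavy chain genes are similar enough that reads can be assigned to the wrong member. Of the 50-base stretches of the H2-D1 transcripts, 13.9% also occurred in other genes, mostly in H2-Q1 and H2-K1, and 6.87% of those of H2-K1 did. The sources used here do not say how such reads were handled, so H2-K1, H2-D1 and the H2-K2, H2-Q and H2-T rows were also summed. The sum was 3519 ± 1161 CPM in BaPs (SD, n = 3), 3789 ± 403 CPM in pre-basophils, 6113 ± 838 CPM in BM mature basophils and 3951 ± 224 CPM in spleen mature basophils. It was lower in pre-basophils than in BM mature basophils (log2 fold change -0.69, SE 0.19, adjusted p = 0.0158) and lower in BaPs than in BM mature basophils (-0.80, SE 0.19, adjusted p = 0.00390, and -1.09 without BaP replicate 3). Scaling by library totals alone ended both calls (-0.46 and -0.34), and the first was also lost when pre-basophil library 1 or 2 or BM mature library 3 was left out (adjusted p up to 0.0729). Spleen differed from BM mature basophils by -0.63 (SE 0.19, adjusted p = 0.0595). Without BaP replicate 3 that difference was -0.63 with adjusted p = 0.000936, and with the replicate block -0.62 with adjusted p = 0.0151. The sum in BaPs differed from pre-basophils by -0.11 (SE 0.19, edgeR adjusted p = 0.803) and from spleen by -0.17 (SE 0.19, adjusted p = 0.474). Without BaP replicate 3 both differences were called, at -0.40 (adjusted p = 0.0481) and -0.46 (adjusted p = 0.00502). H2-D1 made up 44.2% to 52.7% of the sum in 11 libraries and 32.4% in BaP replicate 3, where H2-Q6 measured 266 CPM against 70.0 and 46.7 CPM and H2-Q7 measured 475 CPM against 122 and 104 CPM in the other BaP libraries.

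B2m, the light chain (chr2:122147686-122153083, plus strand), was highest in BaPs and lowest in the spleen. BaP replicates 1 to 3 held 1370, 1222 and 1716 CPM, and those of pre-basophils 1212, 1063 and 1436 CPM. BM mature libraries held 906, 778 and 1137 CPM, and spleen mature libraries 827, 846 and 776 CPM. Every BaP library lay above every mature library, while pre-basophil replicate 2 lay within the BM mature range. B2m was higher in BaPs than in BM mature basophils (log2 fold change 0.61, SE 0.16, adjusted p = 0.00751) and higher in BaPs than in spleen mature basophils (0.81, SE 0.16, adjusted p = 0.000834). It was also higher in pre-basophils than in spleen mature basophils (0.60, SE 0.16, adjusted p = 0.00854). These 3 calls held without any single library and under every scaling tried, and without BaP replicate 3 both BaP differences were smaller, at 0.47 (adjusted p = 0.0117) and 0.68 (adjusted p = 0.000594). Pre-basophils and BM mature basophils differed by 0.40 (SE 0.16, adjusted p = 0.0885), with adjusted p = 0.0248 without BaP replicate 3 and 0.0304 with the replicate block. BaPs and pre-basophils differed by 0.22 (SE 0.16, adjusted p = 0.476), and the mature groups by -0.20 (SE 0.16, adjusted p = 0.470). No 50-base stretch of B2m occurred in another gene.

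The B2m window (chr2:122147437-122147736, plus strand) is printed for comparison with those of the heavy chains, since B2m differed from them in direction between BaPs and BM mature basophils. Capitals mark TATAAA on the other strand, an interferon-stimulated response element (GAAA, any 2 bases, GAAA) and a Y box core, none of them overlapping.
B2m: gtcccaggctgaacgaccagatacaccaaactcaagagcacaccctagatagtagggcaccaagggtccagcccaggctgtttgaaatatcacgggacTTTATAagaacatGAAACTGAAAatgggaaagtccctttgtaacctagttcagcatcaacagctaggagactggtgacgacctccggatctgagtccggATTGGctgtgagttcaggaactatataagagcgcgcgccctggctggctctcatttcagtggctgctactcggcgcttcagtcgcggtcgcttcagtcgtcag
The response element letters occurred in 3.44% of all windows, and among the 5 members with a RefSeq window only in that of B2m. The interferon gamma activated site (TTC, any 3 bases, GAA), present in 8.30% of all windows, was in none of the 5, and the kappa B and X2 letters were in those of H2-D1 and H2-K1 only. Tap1 and Tapbp windows held Y box cores. Only these letter patterns were searched, so sites with variant letters were not counted. A window without a match therefore cannot be said to lack such a site, and no promoter difference between B2m and the heavy chains was tested.

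**Figure D1:**
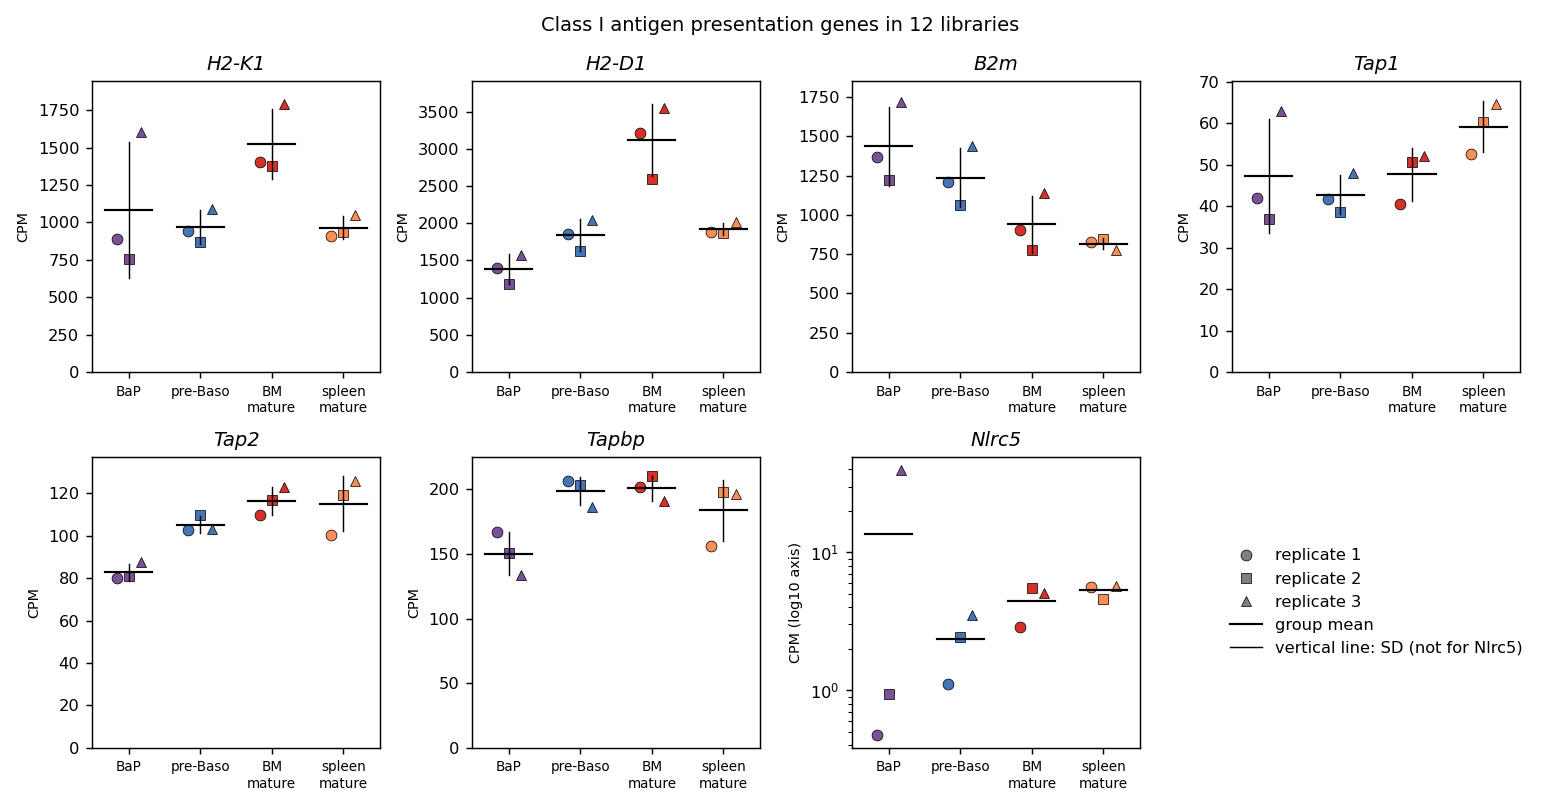
Level of each of the 7 genes in CPM (TMM-scaled, linear axes from 0, except for Nlrc5 on a log10 axis) in the 4 groups; symbols are replicates 1 to 3, horizontal bars group means and vertical lines SDs (not drawn for Nlrc5). H2-D1 reached 2588 to 3547 CPM in BM mature basophils and stayed at or below 2048 CPM elsewhere, B2m declined from 1222 to 1716 CPM in BaPs to 776 to 846 CPM in spleen, and BaP replicate 3 stood alone for Nlrc5 at 39.6 CPM.

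The ratio of heavy chain to light chain counts within a library, which no scaling between libraries can change, separated the groups. The counts of H2-K1 plus H2-D1 were 1.67, 1.58 and 1.85 times those of B2m in BaPs and 2.31, 2.35 and 2.19 times in pre-basophils. In BM mature basophils they were 5.09, 5.10 and 4.70 times those of B2m, and in spleen mature basophils 3.37, 3.32 and 3.96 times. No library overlapped the range of another group, and the order ran from BaPs through pre-basophils and spleen to BM mature basophils. The 6 BaP and pre-basophil libraries lay below the 6 mature libraries by 1.09 on the log2 scale (log2 difference -1.09, two-sided exact permutation p = 0.00216, the smallest that 924 regroupings can give, adjusted p = 0.00649 over 12 ratio tests). Across the 4 groups the exact permutation test gave p = 6.49e-05 (adjusted p = 0.000779). Both tests regrouped the libraries freely and took no account of any pairing of same-numbered bone marrow libraries. Neither call was lost when libraries were regrouped only within a replicate number. Without BaP replicate 3 the log2 difference was -1.07, with exact permutation adjusted p = 0.00433. The neutrophil marker sums above separated the same 6 libraries from the other 6, and their part in this ratio was not tested.

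The ratio of H2-K1 to H2-D1 counts was steadier. It was 0.631, 0.644 and 1.02 in BaPs, 0.508 to 0.536 in pre-basophils, 0.437 to 0.532 in BM mature basophils and 0.482 to 0.520 in spleen mature basophils. All 3 BaP libraries lay above the 9 others, which overlapped each other. The BaP and pre-basophil libraries together lay above the mature libraries by 0.34 on the log2 scale (exact permutation adjusted p = 0.0186, and by 0.20 with adjusted p = 0.0231 without BaP replicate 3). That call was lost without BM mature replicate 1 or 3 or spleen replicate 1 or 2 (exact permutation adjusted p up to 0.0779).

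**Figure D2:**
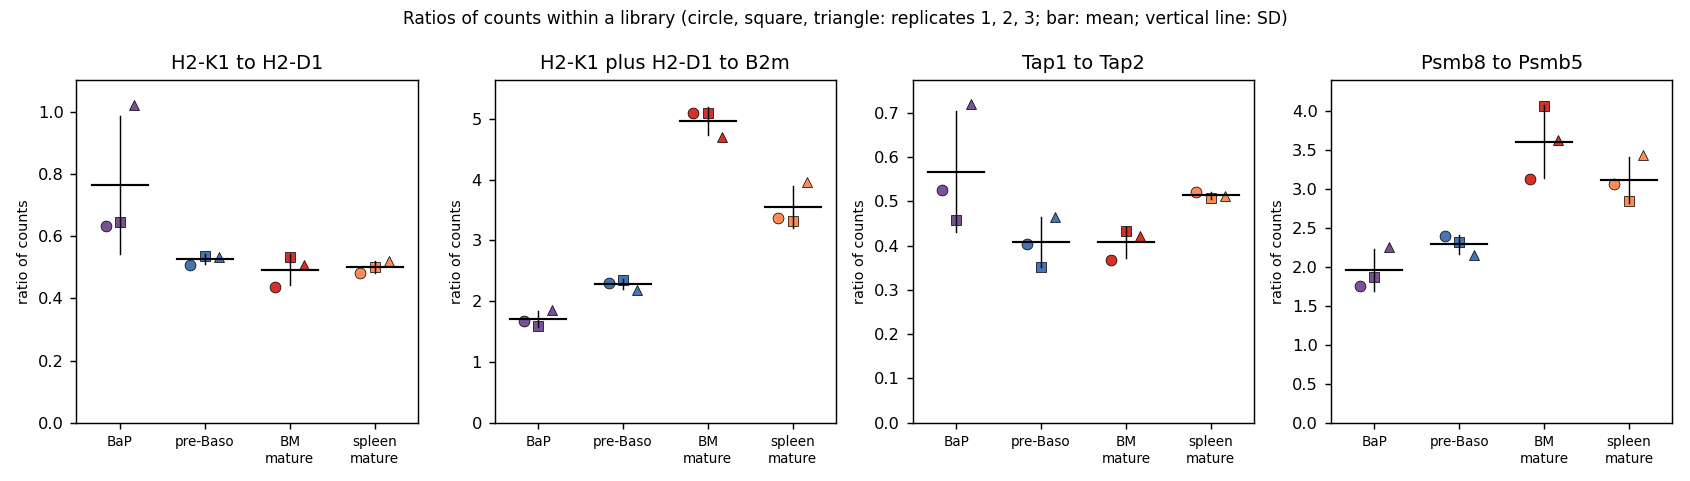
Ratios of read counts within each library (unitless, linear axes from 0) for H2-K1 to H2-D1, H2-K1 plus H2-D1 to B2m, Tap1 to Tap2 and Psmb8 to Psmb5 by group, with symbols for replicates 1 to 3, bars for means and vertical lines for SDs. The heavy chain to B2m ratio rose from a mean of 1.70 in BaPs and 2.28 in pre-basophils to 4.96 in the BM mature group and 3.55 in the spleen.

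The peptide transporter genes changed less. TAP2, one of its subunits, is encoded by Tap2 (chr17:34203527-34216321, plus strand), which measured 80.0, 80.9 and 87.4 CPM in BaPs. Pre-basophil libraries held 103, 110 and 103 CPM, BM mature libraries 110, 117 and 123 CPM, and spleen mature libraries 100.5, 119 and 126 CPM. The BaP libraries lay below all others, which lay close together. Tap2 was lower in BaPs than in BM mature basophils (log2 fold change -0.49, SE 0.11, adjusted p = 0.00273) and in spleen mature basophils (-0.47, SE 0.11, adjusted p = 0.00260). The differences were -0.53 and -0.51 without BaP replicate 3, and scaling by library totals alone ended both calls, at -0.06 and -0.17. Against pre-basophils the BaP difference was -0.34 (SE 0.11, adjusted p = 0.0788), and -0.38 with adjusted p = 0.0408 without BaP replicate 3.

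Tap1, which encodes the partner subunit (chr17:34187553-34197225, plus strand), showed no called difference among the groups with 12 libraries. BaP libraries held 42.0, 37.0 and 62.9 CPM, and pre-basophil libraries 41.6, 38.7 and 48.0 CPM. BM mature libraries held 40.4, 50.6 and 52.0 CPM, and spleen mature libraries 52.5, 60.4 and 64.5 CPM. The spleen libraries lay above all BM libraries other than BaP replicate 3. Pre-basophils differed from spleen mature basophils by -0.46 (SE 0.18, adjusted p = 0.0527), and without BaP replicate 3 the difference was -0.46 with adjusted p = 0.00621, while BaPs then differed from spleen by -0.57 (adjusted p = 0.00296). With the replicate block the pre-basophil difference was -0.47 (adjusted p = 0.0159). Tap1 overlaps Psmb9 on the opposite strand, and the sources used here do not say whether counting used strand. The ratio of Tap1 to Tap2 counts was 0.525, 0.458 and 0.720 in BaPs, 0.353 to 0.466 in pre-basophils, 0.368 to 0.433 in BM mature basophils and 0.507 to 0.522 in spleen mature basophils. It differed across the 4 groups (exact permutation adjusted p = 0.0423), a call lost with the replicate block (0.0718) and on leaving out any single library other than BaP replicate 2 or pre-basophil replicate 3 (exact permutation adjusted p up to 0.0912, and 0.0616 without BaP replicate 3).

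Tapbp, which bridges the transporter and the empty heavy chain (chr17:33915899-33929292, plus strand), was lowest in BaPs. BaP libraries held 167, 150.4 and 133 CPM, and pre-basophil libraries 206, 203 and 186 CPM. BM mature libraries held 201, 210.3 and 191 CPM, and spleen mature libraries 157, 198 and 196 CPM. BaP libraries lay below all pre-basophil and BM mature libraries and overlapped spleen replicate 1. The difference between BaPs and BM mature basophils was called (log2 fold change -0.42, SE 0.12, adjusted p = 0.0124). It was lost without BM mature replicate 2 (adjusted p = 0.0521) and under scaling by library totals alone (-0.01) or by DEGES (-0.33, adjusted p = 0.0676), a scheme that leaves likely changed genes out of the scaling, and it was -0.33 (adjusted p = 0.0244) without BaP replicate 3. BaPs differed from pre-basophils by -0.40 (SE 0.12, adjusted p = 0.0610, and 0.0365 in the bone marrow libraries alone with the replicate block) and from spleen by -0.29 (SE 0.12, adjusted p = 0.0556).

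Nlrc5, the transactivator of class I genes (chr8:94434356-94527272, plus strand), was near the limit of detection in most libraries. It held 2, 4 and 409 counts in BaP replicates 1 to 3, or 0.478, 0.943 and 39.6 CPM, so that a single library carried nearly all of the counts of that group. Pre-basophils held 1.12, 2.43 and 3.52 CPM, BM mature basophils 2.86, 5.51 and 5.05 CPM, and spleen mature basophils 5.60, 4.62 and 5.71 CPM. With 12 libraries no pair of groups was called, and BaPs had the highest mean, with a log2 fold change of 1.69 against BM mature basophils (SE 0.97, adjusted p = 0.171) and of 1.47 against spleen mature basophils (SE 0.91, adjusted p = 0.186). Leaving out BaP replicate 1 or 2 instead gave called differences in that direction, up to 2.22 against BM mature basophils (adjusted p = 0.0366), 2.0 against spleen (0.0374) and 3.08 against pre-basophils (0.0398). Without BaP replicate 3 the direction turned: BaPs were lower than BM mature basophils by -2.64 (adjusted p = 0.000755) and lower than spleen mature basophils by -2.85 (adjusted p = 0.000175). Pre-basophils were then also lower than spleen mature basophils (-1.07, adjusted p = 0.0154), which with 12 libraries was -1.09 (SE 1.08, adjusted p = 0.429). The T cell, NK cell, erythroid and monocyte, macrophage and dendritic cell marker sums that set BaP replicate 3 apart are given above. Their part in its Nlrc5 level was not tested. BaP replicates 1 and 2 held the lowest values of the 12 libraries, from 2 and 4 counts, so their levels are imprecise.

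**Figure D3:**
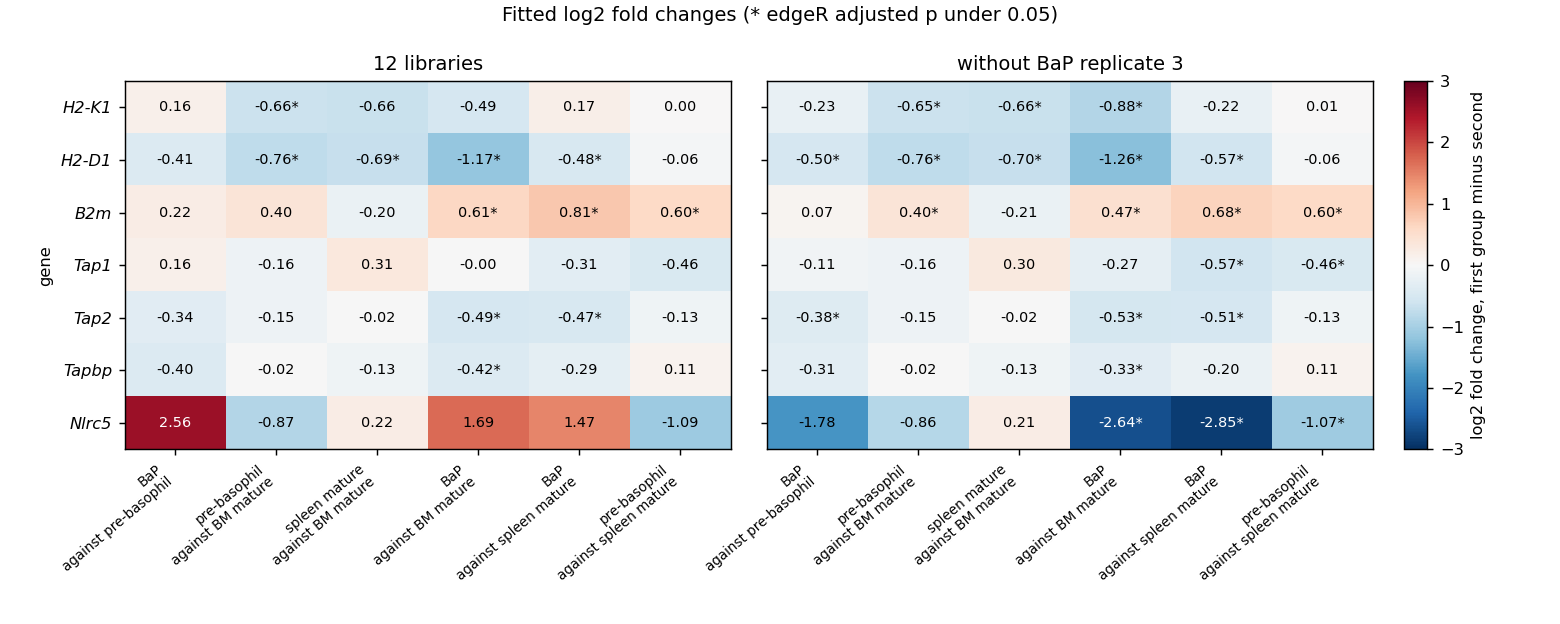
Fitted log2 fold changes (first group minus second, color scale from -3 to 3) of the 7 genes in 6 comparisons, with all 12 libraries on the left and without BaP replicate 3 on the right; asterisks mark edgeR adjusted p under 0.05. In BaPs and pre-basophils against BM mature basophils the heavy chains were negative and B2m positive in both panels, whereas Nlrc5 in BaPs turned from 1.69 to -2.64 against BM mature basophils.

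Read against all genes tested, the number of members called was not large in any comparison. In BaPs against pre-basophils 0 of 7 members were called, where 7.08% of all genes were (2.79% higher and 4.29% lower in BaPs). At an unadjusted p under 0.05 there were 4 of 7 (H2-D1, Tap2, Tapbp and Nlrc5), DESeq2 called 1 (Tapbp), limma-voom called 0, and with the replicate number as a block edgeR called 1 (H2-D1, background 9.28%), or 2 (H2-D1 and Tapbp, background 9.54%) in the bone marrow libraries alone. Pre-basophils against BM mature basophils gave 2 of 7 (H2-K1 and H2-D1, both lower, background 27.3%, of which 16.3% higher and 11.0% lower), and spleen against BM mature basophils 1 of 7 (H2-D1, lower, background 7.83%, of which 4.67% lower). BaPs against BM mature basophils gave 4 of 7 (background 45.0%, of which 25.3% higher and 19.7% lower), with B2m higher and H2-D1, Tap2 and Tapbp lower. BaPs against spleen gave 3 of 7 (background 54.5%, of which 29.8% higher and 24.6% lower), B2m higher and H2-D1 and Tap2 lower, and pre-basophils against spleen 1 of 7 (B2m, higher, background 45.7%, of which 25.2% higher and 20.5% lower). In the joint test of the 4 groups 5 of 7 passed, all but Tap1 and Nlrc5, against 57.8% of all genes. The H2-K1 joint call (edgeR adjusted p = 0.0468) was lost in 9 of 12 fits without 1 library (up to 0.223). That of Tapbp (0.0299) was lost in 6 of 12 (up to 0.0881) and under DEGES (0.0794). Without BaP replicate 3 the counts in the same order were 2, 3, 2, 6, 5 and 3 of 7, and 6 of 7 in the joint test, where 12.4%, 35.7%, 18.0%, 51.3%, 61.6%, 54.4% and 65.8% of all genes were called. The joint set then gained Tap1 and Nlrc5 and lost Tapbp (edgeR adjusted p = 0.0670). With the replicate block, spleen against BM mature basophils and pre-basophils against spleen each gave 2 of 7 (background 11.3% and 48.2%). The comparisons share groups, so their counts are not independent.

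Of 8 listed chaperones and enzymes that fold and load class I molecules, 5 were called in pre-basophils against BM mature basophils, all higher (background 27.3%), with a median log2 fold change over the list of 0.59 against -0.00 over all genes. Calr, the calcium-binding chaperone calreticulin, fell from 1186 CPM in pre-basophils to 259 CPM in BM mature basophils (log2 fold change 2.20, SE 0.32, adjusted p = 0.000218). Pdia3, the disulfide isomerase bound to tapasin, followed at 1.38 (SE 0.23, adjusted p = 0.000591), and Canx, the membrane chaperone calnexin, at 1.04 (SE 0.15, adjusted p = 0.000245). Ganab and Erap1 completed the calls. The count was 6 of 8 without BaP replicate 3 (background 35.7%). Hspa5, the most abundant of the list, had means of 3634 ± 930 and 3585 ± 306 CPM in the same groups and was not called, nor were Uggt1 and Tapbpl (23.4 against 27.7 CPM). Between spleen and BM mature basophils 0 of 8 were called by edgeR (background 7.83%, and 2 at an unadjusted p under 0.05). In BaPs against spleen 5 of 8 were higher (background 54.5%), led by Calr (3.71, SE 0.34, adjusted p = 1.03e-06), Pdia3 (2.37) and Canx (1.64). Without BaP replicate 3 there were 6 higher and 1 lower (background 61.6%). These chaperones also fold other glycoproteins.

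The proteasome genes split by type. The constitutive catalytic subunits Psmb5, Psmb6 and Psmb7 were all higher in pre-basophils than in BM mature basophils, 3 of 3, at log2 fold changes of 0.74, 0.91 and 0.61 (adjusted p = 0.00131, 0.00127 and 0.00570). All 3 were also higher in BaPs than in spleen mature basophils (background 54.5%, of which 29.8% higher). The immunoproteasome is the form whose subunits replace the constitutive ones and favour class I ligands. Of the 6 genes of the immunoproteasome and its activator, edgeR called 0 of 6 in the pre-basophil to BM mature comparison (0 also at an unadjusted p under 0.05). The background there was 27.3% and the median log2 fold change of the list 0.04. Psme1, the most abundant of them, measured 196 ± 11.7 CPM and 214 ± 21.6 CPM in these groups. Psmb9 was higher in BaPs than in spleen mature basophils (0.83, SE 0.16, adjusted p = 0.000754), with the overlap with Tap1 named above. The count ratio of the immunosubunit gene to its constitutive counterpart was lower in the 6 BaP and pre-basophil libraries. For Psmb8 to Psmb5 it was 1.75, 1.87 and 2.26 in BaPs and 2.29 ± 0.123 (SD, n = 3) in pre-basophils, against 2.85 to 4.06 in the mature libraries, with no overlap (log2 difference -0.66, exact permutation adjusted p = 0.00649). For Psmb10 to Psmb7 the difference was -0.63 (exact permutation adjusted p = 0.0104), and for Psmb9 to Psmb6 it was -0.60 (exact permutation adjusted p = 0.0343), with overlapping libraries in both. The Psmb9 to Psmb6 call was lost with the replicate block (exact permutation adjusted p = 0.0694) and without BaP replicate 1, any pre-basophil library, BM mature replicate 1 or 3 or spleen replicate 1 (adjusted p up to 0.0740).

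Of 7 receptors and kinases of the interferon pathway, 4 were called in pre-basophils against BM mature basophils, all lower, with a median of -0.71 over the list (background 27.3%). Ifngr1 (33.6 against 29.9 CPM) and Tyk2 (31.5 against 30.9 CPM) were not called. The called genes were Ifngr2, a chain of the interferon gamma receptor (-0.90, SE 0.19, adjusted p = 0.00286), Jak2, the kinase bound to it (-0.87, SE 0.14, adjusted p = 0.000551), Ifnar2, a chain of the type I interferon receptor (-0.83, SE 0.15, adjusted p = 0.00131), and Jak1, the most abundant gene of the list at 303 and 494 CPM (-0.71, SE 0.15, adjusted p = 0.00273). The count was 5 of 7 without BaP replicate 3 (background 35.7%), and scaling by library totals alone ended the Jak1 call (adjusted p = 0.0623). Jak2 differed between all pairs of groups, at 98.7 ± 2.08 CPM in BaPs, 166 ± 29.3 CPM in pre-basophils, 303 ± 49.8 CPM in BM mature basophils and 540 ± 23.8 CPM in spleen mature basophils. It was the only gene of the list called between spleen and BM mature basophils (0.83, SE 0.14, adjusted p = 0.00583). Between BaPs and pre-basophils Jak2 and Ifnar2 were called, both lower in BaPs (-0.75 and -0.62), the latter lost without BaP replicate 1 or 2 or any pre-basophil library (adjusted p up to 0.124) and under scaling by library totals alone (0.187), and with the replicate block in the bone marrow libraries alone (0.0568). Ifngr1 was called higher in BaPs than in spleen (1.74, adjusted p = 0.0117), which without BaP replicate 3 was 0.30 (adjusted p = 0.141).

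Among 15 transcription regulators of class I genes, 3 were called in pre-basophils against BM mature basophils, where 27.3% of all genes were. Irf1, the interferon-induced activator and the most abundant of the list, measured 99.3 ± 15.5 and 185 ± 29.5 CPM (log2 fold change -0.89, SE 0.21, adjusted p = 0.00594). Irf2, its relative, was lower by -0.77 (adjusted p = 0.0273, up to 0.0823 on leaving out any single pre-basophil or BM mature library), and Nfya, a subunit of the factor that binds the Y box, was higher by 0.64 (adjusted p = 0.0386, lost without replicate 1 or 2 of either group, up to 0.160, and at 0.0556 with the replicate block in the bone marrow libraries alone). Scaling by library totals alone ended the calls of Irf1 (-0.67, adjusted p = 0.0556) and Irf2. The count was 7 of 15 without BaP replicate 3 (background 35.7%), with 2 higher and 5 lower. In BaPs against spleen 8 of 15 were called, near the background of 54.5% (11 of 15 without BaP replicate 3, background 61.6%). With 12 libraries 6 of them were lower, led by Ciita (-1.92), the class II counterpart of Nlrc5, then Rfxank (-1.08), a subunit of the complex that binds the X box, and Irf1 (-0.94). Ciita was also the 1 regulator called between spleen and BM mature basophils (5.17 ± 2.20 against 0.775 CPM in mean, log2 fold change 2.78, adjusted p = 0.0219, up to 0.0953 without 1 of 4 single mature libraries, BM or spleen replicate 1 or 3). Irf8 was called higher in BaPs than in pre-basophils (4.35, SE 1.22, adjusted p = 0.0475), which without BaP replicate 3 was 0.42 (adjusted p = 0.749). The call was lost with 10 of the 12 libraries left out in turn and with the replicate block (0.0713, and 0.0564 in the bone marrow libraries alone). Rfxank was lower in BaPs than in pre-basophils by -0.68 (adjusted p = 0.0447), a call lost without any of 8 single libraries (adjusted p up to 0.178): BaP replicates 1 and 2, the pre-basophil libraries, BM mature replicate 3 and spleen replicates 2 and 3.

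Other interferon-induced genes were present at low levels. Of 15 tested, 4 were lower in pre-basophils than in BM mature basophils, near the background of 27.3%: Rsad2, an antiviral enzyme (-1.33, SE 0.38, adjusted p = 0.0178), Isg15, a ubiquitin-like modifier (-0.74, SE 0.22, adjusted p = 0.0240), Gbp7, a GTPase (-0.73, SE 0.17, adjusted p = 0.00619), and Irf9. Leaving out a library raised the adjusted p of Rsad2 to at most 0.0779 (pre-basophil library 2 or 3 or BM mature library 1) and that of Isg15 to at most 0.0956 (pre-basophil library 1 or 2 or BM mature library 2 or 3). Scaling by library totals alone ended the calls of Isg15 and Gbp7 (adjusted p = 0.152 and 0.0980), and the list counted 6 of 15 without BaP replicate 3 (background 35.7%). Bst2, the most abundant of them, was the 1 gene called between BaPs and pre-basophils and was higher in BaPs, at 67.0 ± 5.21 against 45.9 ± 4.76 CPM (0.55, adjusted p = 0.0173, up to 0.0971 without pre-basophil replicate 1 or 2). Gbp2 was the 1 gene called between spleen and BM mature basophils and was lower in spleen (-1.29, SE 0.26, adjusted p = 0.0121, up to 0.0686 without BM mature replicate 1 or 3 or spleen replicate 3). In BaPs against spleen 8 of 15 were called, near the background of 54.5%. Isg15 (-1.30) and Irf7 (-1.27, not called under scaling by library totals alone) were lower, while Gbp3 was higher at 1.35, a call lost without spleen replicate 2 or 3 and at 0.59 (adjusted p = 0.299) without BaP replicate 3.

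**Figure D4:**
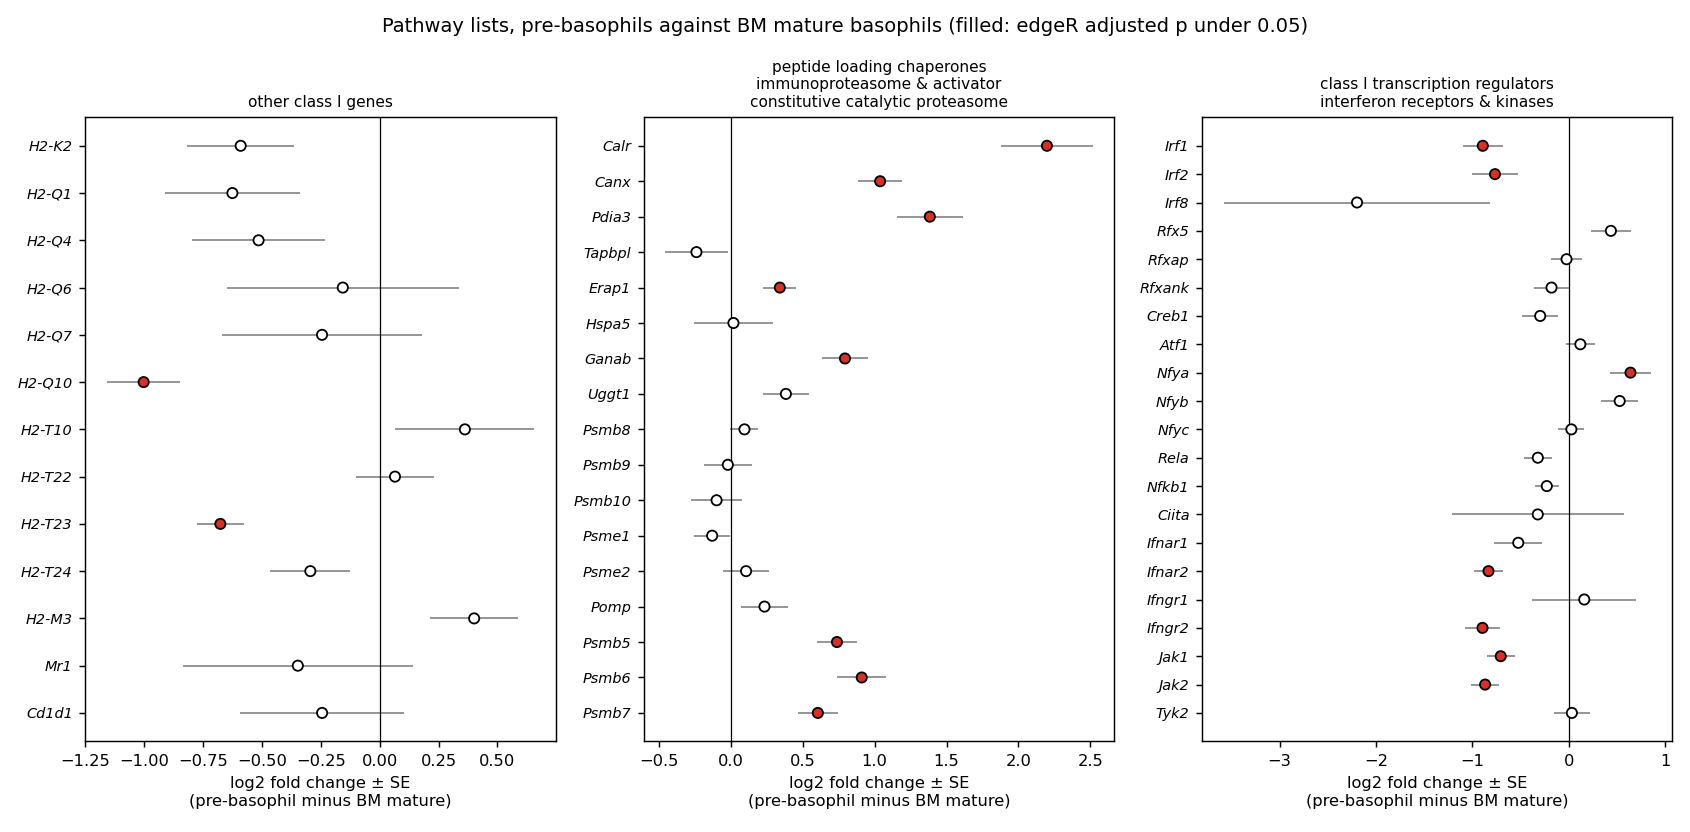
Log2 fold changes with SE (pre-basophils minus BM mature basophils) of the listed class I genes, chaperones, proteasome genes, transcription regulators, and interferon receptors and kinases; filled points have an edgeR adjusted p under 0.05 with 12 libraries, and 1 listed gene is not drawn. Calr, Pdia3, Canx and the constitutive proteasome subunits lie to the right of 0, and H2-Q10, H2-T23, Irf1, Ifngr2 and Jak2 to the left.

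The other class I genes, most of them nonclassical, did not share 1 profile. H2-T23, which encodes Qa-1, a ligand of NK cell receptors, was the most abundant of the 13 tested at 189 ± 6.64 CPM in BaPs, 272 ± 11.9 CPM in pre-basophils, 435 ± 38.2 CPM in BM mature basophils and 334 ± 6.44 CPM in spleen mature basophils. It was called in all 6 comparisons, for example at -0.68 for pre-basophils against BM mature basophils (SE 0.10, adjusted p = 0.000257) and -0.38 for spleen against BM mature basophils (SE 0.10, adjusted p = 0.0358). The latter call was lost without pre-basophil replicate 2 or 3, BM mature replicate 1 or 3 or any spleen library (adjusted p up to 0.124), and under scaling by library totals alone (adjusted p = 0.147). H2-Q10 was lower in pre-basophils, at 192 ± 1.43 against 386 ± 48.0 CPM in BM mature basophils (adjusted p = 0.000384), and lower in spleen than in BM mature basophils by -1.19 on the log2 scale (adjusted p = 0.00196). These made 2 of 13 genes in each comparison, both lower, where 27.3% and 7.83% of all genes were called. Without BaP replicate 3 the counts were 5 and 3 of 13, all lower, where 35.7% and 18.0% of all genes were called. In BaPs against pre-basophils H2-T24 (-0.68, adjusted p = 0.0318) and H2-T23 (-0.53, adjusted p = 0.00761) were lower in BaPs, and scaling by library totals alone ended both calls (adjusted p = 0.146 and 0.0526). The H2-T24 call was also lost without BaP replicate 1 or any pre-basophil library (adjusted p up to 0.113). In BaPs against spleen 6 of 13 were called (background 54.5%), and 7 of 13 without BaP replicate 3 (background 61.6%). Among the 6, H2-Q1 (-1.23) and H2-K2 (-0.94, not called under scaling by library totals alone) were lower and H2-M3, which presents formylated peptides, was higher (0.96). Reads of this family can be shared, as for the heavy chains.

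MHC class II genes, which serve the other presentation route, did not follow the class I pattern between tissues. Of the 6 listed, 4 were higher in spleen than in BM mature basophils (H2-Aa 4.07, H2-Eb1 3.97, Cd74 3.76 and H2-Ab1, background of genes called higher 3.16%), where no class I gene was called higher. Cd74, the invariant chain and most abundant of them, measured 226 ± 75.6 CPM in spleen and 16.6 CPM in mean in BM mature basophils. B cell markers rose with these genes: 6 of 7 were called higher in spleen, with the sums given above, and their part in the class II and Ciita results was not tested. In pre-basophils against BM mature basophils 3 of 6 were higher (background 27.3%, of which 16.3% higher), H2-Ab1 (1.27), H2-DMa (0.98) and H2-DMb1 (0.81, adjusted p = 0.0469). The H2-DMb1 call was lost without any pre-basophil or BM mature library or spleen replicate 1 or 3 (adjusted p up to 0.133), and with the replicate block in the bone marrow libraries alone (0.0532). Between BaPs and pre-basophils H2-Aa was called (2.26, adjusted p = 0.0178, up to 0.0882 without pre-basophil replicate 1 or 2), where 7.08% of all genes were. Without BaP replicate 3 the count was 2 of 6 (background 12.4%).

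The members did not all move together across the libraries, and B2m stood most apart. Over the 12 libraries, which share 4 groups, Pearson's r of log2 CPM was 0.76 between Tap2 and Tapbp, 0.74 between H2-K1 and H2-D1, and 0.78 between Tap1 and Nlrc5, where BaP replicate 3 was highest or next to highest in both. H2-D1 had r of 0.73 with Tap2 and 0.56 with Tapbp, and H2-K1 had r of 0.64 with Nlrc5. Among pairs without B2m, r was negative only for Tapbp with Nlrc5 (-0.31) and with Tap1 (-0.13). B2m had negative r with Tap2 (-0.68), Tapbp (-0.56), H2-D1 (-0.40) and Tap1 (-0.20), and r near 0 with H2-K1 (0.09) and Nlrc5 (0.02). Outside the members and lists, the genes whose level followed the mean standardised profile of the 7 members most closely were Gm47409 (r = 0.94), P2ry10, a G protein-coupled receptor (0.93), Trdv2-1, a T cell receptor delta variable segment (0.92), Tsc22d3, a glucocorticoid-induced regulator (0.92), and Oas1b, an interferon-induced gene (0.92). P2ry10, for example, measured 35.7 ± 30.9 CPM in BaPs, 43.9 ± 7.51 CPM in pre-basophils, 82.3 ± 12.5 CPM in BM mature basophils and 50.7 ± 3.58 CPM in spleen mature basophils. In the mean profile of the members BaP replicate 3 stood at 0.43, against -0.78 and -1.12 in BaP replicates 1 and 2. The part of that library in these r values was not tested. These correlations are descriptions over libraries of the same groups and carry no test.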

How the data were processed

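Poly(A) RNA of the sorted cells had been amplified by TAS-Seq and sequenced single-end. Per the study's methods, the authors trimmed reads with Cutadapt 3.4 and aligned them to reference RNA with Bowtie2 2.4.2, and they deposited raw read counts per gene for 12 libraries, with no normalization. The methods name GRCm38, the submitters' processing notes GRCm39, and the sources used here do not state strand or multi-mapping settings. Gene positions were taken by symbol from GENCODE M21 (GRCm38), which held 30928 of the 32227 symbols, and promoter windows from RefSeq (GRCm38.p6).

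Counts were scaled by TMM, filtered with filterByExpr and fitted in edgeR 4.0.16 (R 4.3.3) with 1 coefficient per group over all 12 libraries. Quasi-likelihood F tests were adjusted by Benjamini-Hochberg over 15083 genes and called at an adjusted p under 0.05. Fold changes are first minus second group named. Count ratios were compared by two-sided exact permutation tests, adjusted over 12 tests. The code was tested on simulated data. Library totals were 3596108 to 8151030 counts. The limits given for a count of 0 cover counting error only, whereas SEs and SDs include the spread between libraries. Every pair of libraries in a group differed by more than sampling noise (chi-square per degree of freedom 4.16 or more). Members, pathway lists and markers were chosen with earlier results of these data known. The values of 1 listed gene are not reported here. Genes named from a list were its called genes with the largest changes and its most abundant gene. Some further genes, called or not called, were named outside this rule to fill out the account of a list. Alternatives were other scalings, no filter, limma-voom 3.58.1, DESeq2 1.42.0, fits of only the groups compared, each library left out in turn, and the replicate number as a block. Deviations of same-numbered libraries from their group means correlated at r = 0.125 to 0.262 in the 9 pairs among bone marrow groups and 0.000366 to 0.0899 in the 9 pairs with spleen, so the numbers were taken to pair the bone marrow libraries, and a blocked fit of these alone was added after seeing the data.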

Additional observations from a re-analysis of the deposited data

How the results depend on the processing

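Of the calls among the members, those of H2-D1 in BaPs and pre-basophils against BM mature basophils, the 3 calls of B2m and the Tap2 calls in BaPs against BM mature and against spleen mature basophils kept their side of the threshold without each library in turn, and those of H2-D1 against BM mature basophils in the BM groups and of B2m also under every scaling. The number of members called with libraries scaled by their totals alone was 2 in the joint test, 2 in BaPs against BM mature basophils and 1 in BaPs against spleen. In BaPs against pre-basophils it was 1 with no filter, 1 by DESeq2, 1 with the replicate block and 2 with the block in the bone marrow libraries alone. In pre-basophils against spleen it was 2 with RLE scaling, 3 with no filter, 2 by DESeq2, 2 with the replicate block and 3 in a fit of the groups compared, and in spleen against BM mature basophils it was 2 with no filter, by DESeq2, with the replicate block and in a fit of the groups compared. Over the fits without 1 library each, the counts ran from 3 to 6 (joint test), 3 to 6 (BaPs against BM mature), 0 to 2 (BaPs against pre-basophils), 3 to 5 (BaPs against spleen), 1 to 3 (pre-basophils against BM mature), 1 to 3 (pre-basophils against spleen) and 0 to 2 (spleen against BM mature). The listed genes called in BaPs against pre-basophils were 18 with no filter, 5 by limma-voom, 13 with the replicate block, 1 in a fit of the groups compared and 2 to 19 without 1 library. In spleen against BM mature basophils they were 18 in a fit of the groups compared and 6 to 17 without 1 library. The number of all genes called moved as well. Without 1 library it ran from 382 to 1831 in BaPs against pre-basophils (1068 with 12 libraries) and from 241 to 2653 in spleen against BM mature basophils (1181 with 12 libraries). These shifts in list counts are therefore not results about the lists.

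Differences near 0 changed sign. In pre-basophils against spleen, H2-D1 was 0.026 with totals alone and 0.070 with DEGES (-0.15 to 0.030 without 1 library), H2-K1 was -0.0094 with RLE, -0.0065 with no filter, -0.0094 by DESeq2 and -0.0029 with the replicate block (-0.091 to 0.086), and Tap2 was 0.0014 with DEGES. Tap1 in BaPs against BM mature basophils was 0.45 with totals alone, 0.075 with DEGES and 0.0079 with no filter (-0.27 to 0.15 without 1 library). With totals alone Tap1 was 0.014 in BaPs against spleen and 0.060 in pre-basophils against BM mature basophils, Tap2 was 0.075 in the latter and 0.11 in spleen against BM mature basophils (-0.081 to 0.077 without 1 library), and Tapbp was 0.20 in pre-basophils against BM mature basophils, or 0.072 with DEGES (-0.054 to 0.028). Without 1 library, H2-K1 ran from -0.23 to 0.36 in BaPs against pre-basophils and from -0.22 to 0.38 in BaPs against spleen, and Tap1 from -0.11 to 0.30 in BaPs against pre-basophils. Nlrc5 ran from -2.64 to 2.22 against BM mature basophils, -1.78 to 3.08 against pre-basophils and -2.85 to 2.0 against spleen in BaPs, turned by BaP replicate 3 alone, and from -0.0085 to 0.38 in spleen against BM mature basophils.

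The heavy chain sum with totals alone was -0.34 (BaPs against BM mature), 0.13 (BaPs against pre-basophils), 0.16 (BaPs against spleen), -0.46 (pre-basophils against BM mature) and 0.031 (pre-basophils against spleen, 0.074 with DEGES). In spleen against BM mature basophils it passed the threshold at -0.67 with DEGES, -0.61 with no filter, -0.64 by DESeq2, -0.62 with the replicate block and -0.64 in a fit of the groups compared. Without 1 library it ran from -0.40 to 0.057, -0.46 to 0.0085, -0.78 to -0.59, -0.14 to 0.023 and -0.72 to -0.52 in BaPs against pre-basophils, BaPs against spleen, pre-basophils against BM mature, pre-basophils against spleen and spleen against BM mature. With the replicate block the exact permutation adjusted p was 0.0718 for Tap1 to Tap2 and 0.0917 for Psmb10 to Psmb7 over the 4 groups, and Psmb9 to Psmb6 was -0.60 (0.0694). Leaving out 1 library gave log2 ratios of 0.20 to 0.40 (H2-K1 to H2-D1), -0.065 to 0.14 (Tap1 to Tap2) and -0.74 to -0.48 (Psmb9 to Psmb6), and 4-group exact permutation adjusted p of 0.0148 to 0.0614, 0.0130 to 0.0912, 0.0344 to 0.210 and, for Psmb10 to Psmb7, 0.0231 to 0.0740. The causes of these changes were not tested. With 2 to 43 counts in 11 libraries, Nlrc5 is limited by depth.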
